A study of Homo sapiens with 6 samples.

Results

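The genes described here are the heat shock proteins, their DNAJ cochaperones and the transcription factors HSF1 and HSF2. They were chosen by name, with earlier results of these data known. Taken were symbols that start with HSP90, HSPA, HSPH, HSPB, HSPD, HSPE or DNAJ, plus HSF1 and HSF2. HSPBP1 and HSPBAP1, which bind heat shock proteins but belong to other families, were left out. This gave 68 genes of 15376 in the coding table. Expression was measured by RNA sequencing of total RNA from PC9ER, a line of human non-small cell lung cancer cells, in 3 libraries after gefitinib and 3 control libraries given only DMSO, the vehicle. Gefitinib inhibits the kinase of the epidermal growth factor receptor, EGFR. Per the labels, all cells grew in 10% fetal calf serum. The treatment text, which is common to both groups, describes 72 h with vehicle, then overnight serum withdrawal, with gefitinib at 1 µM for the last 6 h. Whether serum was withdrawn from control cells too is left unsaid, so an effect of serum cannot be told apart from that of the drug. Nor do the labels say that the 3 libraries of a group came from separate cultures, so p-values measure only the spread between these libraries. Cells with the Notch inhibitor DBZ, which the design text mentions too, were not analysed here.

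Heat shock proteins are molecular chaperones that bind unfolded proteins, keep them from aggregating and help them fold. HSP70 proteins work in cycles of ATP hydrolysis, which DNAJ proteins start and exchange factors such as HSP110 complete, and they pass many clients to HSP90, which stabilizes kinases and steroid receptors, mutant EGFR among its known clients. Separate members serve the cytosol, the endoplasmic reticulum (ER) and the mitochondrion. In heat or proteotoxic stress HSF1 binds heat shock elements in promoters and raises the cytosolic chaperones, while misfolded protein in the ER raises the ER members through the unfolded protein response.

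Values are normalized read counts, meaning gene reads scaled by the authors to the same coding total in each library. The libraries held 13674237 to 38581498 coding reads. A gene was called higher or lower where limma's adjusted p, over all 15229 genes with reads in any library, was below 0.05. Log2 differences are gefitinib minus control on log2(value + 1), with their standard error (SE). In brackets they stand as difference ± SE. The scale understates changes of low genes. Gene positions are those of GENCODE 29 on GRCh38. The treatment moved a large part of the transcriptome: 28.3% of all tested genes were higher in gefitinib cells and 22.8% lower, 51.1% in either direction, and the first principal component, with 71.4% of the variance, separated the groups. Markers of epithelial cells, 8 of 8 in the table and none at 0, summed to 72373 to 75629 in gefitinib libraries and 86972 to 125415 in control libraries. Not all were lower: EPCAM stood at 11720 to 12377 in gefitinib libraries and 9066 to 10537 in control libraries, and ELF3 overlapped. KRT7, KRT8, KRT18, KRT19, CDH1 and CLDN4 were lower in every gefitinib library. Fibroblast markers summed to 47.6 to 68.0 in gefitinib libraries and 32.4 to 71.4 in control libraries, and blood markers to 5.42 to 10.6 in gefitinib libraries and 0 to 4.83 in control libraries. The lung lineage genes SFTPB and NAPSA were near 0, with sums of 25.1 to 32.8 in gefitinib libraries and 24.7 to 32.4 in control libraries. The endothelial list stood at 147 to 176 in gefitinib libraries and 1180 to 1360 in control libraries, nearly all of it PECAM1. The part of these shifts in the results was not tested. Fewer cells of a kind and less RNA per cell cannot be told apart in bulk RNA.

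Among the 68 genes, 66 had reads and were tested, and 58 had a mean value of at least 10. HSPB2 and HSPB9 were at 0 in every library, and 3 reads, the limit that a count of 0 allows, correspond to between 1.41 and 3.97 normalized reads per library. Of the 66, 24 were higher in gefitinib cells, 19 were lower and 23 did not pass the threshold. Called and at least 2-fold higher were 9, where 12.4% of all genes were, and called and at least 2-fold lower were 6, where 9.92% of all genes were. Gefitinib and control libraries were fully separated for 44 of the 66, against 58.0% of all genes. The median log2 difference of the family was 0.12, beside 0.10 for all genes. Those called in either direction were 43 of 66, or 65.2%, beside 51.1% of all genes. The base of all genes includes low ones. Where only the 12097 genes with a mean of at least 10 were fitted, 4044 were higher and 3389 lower. In that fit 25 of the 58 members were higher and 19 lower. The summed share of the members in all coding reads was 1.49% ± 0.0739 in gefitinib cells and 1.62% ± 0.123 in control cells (SD, n = 3 each).

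**Figure D1:**
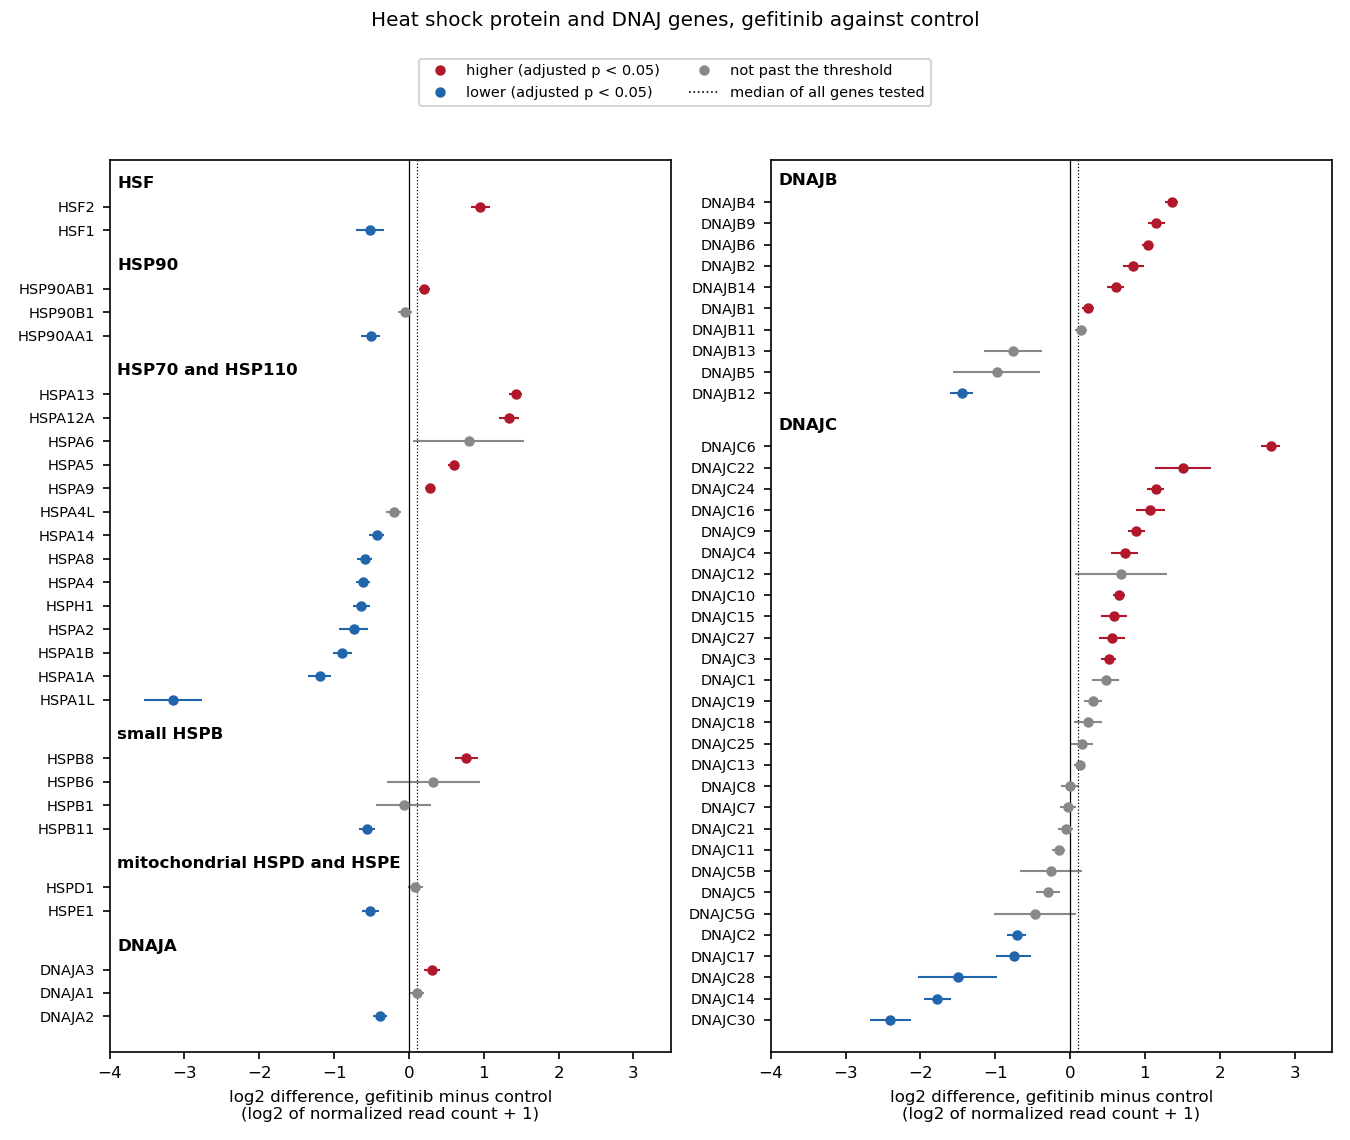
Log2 difference (gefitinib minus control, log2 of normalized read count + 1) of each of the 66 tested genes, grouped by class, with SE bars. Red points are the 24 called higher, blue points the 19 called lower and grey points the 23 that did not pass the threshold; the dotted line marks the median of all genes, 0.10.

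The HSP90, HSP70 and HSP110 genes of the cytosol were mostly lower in gefitinib cells, and its DNAJA, DNAJB and small heat shock genes mostly were not. Of the 13 cytosolic HSP90, HSP70 and HSP110 genes, 9 were lower, 2 were higher and 2 did not pass, with a median log2 difference of -0.59. Lower were 6 against a 1.2-fold change and 7 without gefitinib library 2. Of 10 cytosolic DNAJA, DNAJB and HSPB genes, 5 were higher, 1 was lower and 4 did not pass, with a median of 0.28. DNAJC genes were left out of this group. So were HSPB11 (-0.57 ± 0.11, called lower) and DNAJB13 (-0.76 ± 0.39, which did not pass). All 23 together gave 7 higher and 10 lower, with a median of -0.21. Of the 10 ER members, 6 were higher, 1 was lower and 3 did not pass, with a median of 0.56; with DNAJC14 and DNAJC16, which can also be placed at ER membranes, 7 of 12 were higher and 2 lower. The ER and mitochondrial groups include their DNAJ genes. Of the 8 mitochondrial members, 3 were higher, 2 lower and 3 did not pass, with a median of 0.18. Among all genes, 28.3% were higher and 22.8% lower, with a median of 0.10. The groupings use textbook locations and were made after the values had been seen, so they carry no test. The 13 cytosolic genes took 0.796% ± 0.0602 of the coding reads in gefitinib cells and 1.03% ± 0.0919 in control cells (SD, n = 3 each). ER members took 0.363% ± 0.0132 in gefitinib cells and 0.294% ± 0.0233 in control cells.

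**Figure D2:**
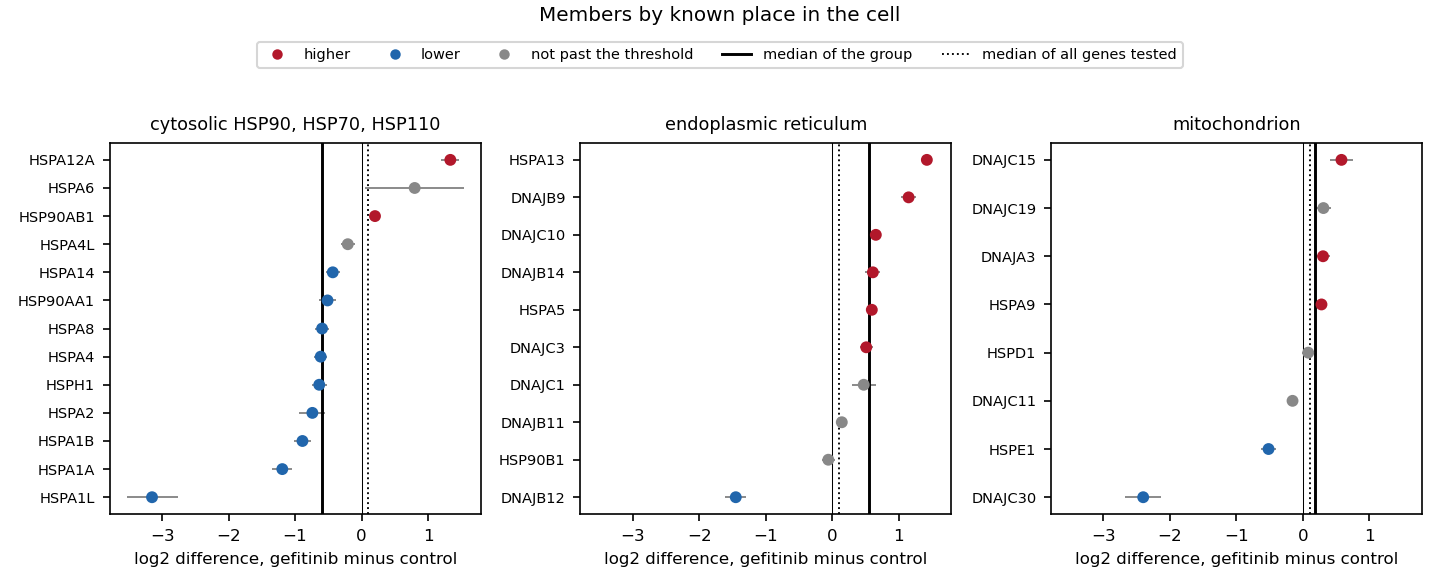
Log2 difference (gefitinib minus control) of the cytosolic HSP90, HSP70 and HSP110 genes, without cytosolic DNAJ and HSPB genes, and of all members placed in the ER and the mitochondrion except DNAJC14 and DNAJC16, with SE bars, the median of each group as a solid line and that of all genes as a dotted line. The median of the 13 cytosolic genes lies at -0.59, the ER median at 0.56 and the mitochondrial median at 0.18.

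The transcription factors of the family moved in opposite directions. HSF2 (chromosome 6, 122399546-122433119, plus strand), which forms complexes with HSF1 at heat shock genes, had 1444, 1362 and 1356 normalized reads in gefitinib libraries 1 to 3, against 873, 670.5 and 625 in control libraries 1 to 3. Every gefitinib library was above every control library, and HSF2 rose (0.95 ± 0.13, adjusted p = 0.000233, limma). HSF1 (chromosome 8, 144291591-144314722, plus strand), the master regulator of the heat shock response, had 1465, 1373 and 1336 in gefitinib libraries and 1412, 2219 and 2525 in control libraries. Control library 1 lay within the gefitinib range, so the groups overlap, and the spread among controls was large. HSF1 was called lower (-0.52 ± 0.19, adjusted p = 0.0415, limma), but the call was lost when any gefitinib library, control library 2 or control library 3 was left out, with adjusted p from 0.126 to 0.234, and without a filter (adjusted p = 0.103). Without control library 3 the difference was -0.35. HSF1 protein is known to be controlled mainly after translation. HSF1 shares its locus with DGAT1 on the opposite strand. No source used here states if reads were counted by strand, so reads from such shared stretches, here and in the genes below, are of uncertain origin.

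Cytosolic HSP90 exists as a stress-inducible gene, HSP90AA1, and a constitutive gene, HSP90AB1, and the pair diverged. HSP90AA1 (chromosome 14, 102080738-102139699, minus strand) had 57133, 46359 and 44961 normalized reads in gefitinib libraries, against 81001, 68739.6 and 61931 in control libraries. It fell (-0.51 ± 0.13, adjusted p = 0.00827, limma) with no overlap, although the adjusted p was 0.0872 without gefitinib library 2 and 0.105 without gefitinib library 3. HSP90AB1 (chromosome 6, 44246166-44253888, plus strand) had 42777, 42465 and 44333 in gefitinib libraries and 38154, 37563 and 36864 in control libraries. Here the gefitinib libraries were higher without overlap, by a small margin (0.20 ± 0.07, adjusted p = 0.0445, limma), and this call was lost with TMM scaling (0.14, adjusted p = 0.239) and in 5 of the 6 fits that left out a library. The ratio of HSP90AA1 to HSP90AB1 reads within a library does not depend on scaling. It was 1.34, 1.09 and 1.01 in gefitinib libraries and 2.12, 1.83 and 1.68 in control libraries, so the ranges do not overlap. HSP90AA1 overlaps WDR20 on the opposite strand and has processed pseudogenes, so part of its reads is of uncertain origin. HSP90B1 (chromosome 12, 103930107-103953645, plus strand), the HSP90 of the ER known as GRP94, had 24968, 23378 and 22429 in gefitinib libraries and 27569, 23759 and 22523 in control libraries, which overlap, and did not pass (-0.06 ± 0.09, adjusted p = 0.641, limma).

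Per kilobase of annotated exon, these genes and 2 HSP70 genes were the most abundant of the family. HSP90AB1 stood at 14494 ± 336 normalized reads per kb in gefitinib cells and 12593 ± 217 in control cells (SD, n = 3 each). HSP90AA1 stood at 9429 ± 1269 per kb in gefitinib cells and 13445 ± 1841 in control cells, and HSPA8, the constitutive HSC70, at 7284 ± 723 in gefitinib cells and 10987 ± 1002 in control cells. In control cells the HSP90AB1 level lay within the spread of HSP90AA1, whereas in gefitinib cells HSP90AB1 stood above HSP90AA1 in each library. That order rests on all annotated exon bases, 5248 for HSP90AA1 and 2980 for HSP90AB1. By reads alone, HSP90AA1 was above HSP90AB1 in every library. HSPA5 and HSP90B1, the major ER chaperones, stood at 5028 ± 188 and 5025 ± 273 per kb in gefitinib cells, within each other's spread, and at 3326 ± 169.6 and 5243 ± 560.2 in control cells, where HSP90B1 was higher. Together these 5 genes made up 0.947% ± 0.0646 of the coding reads in gefitinib cells and 1.10% ± 0.101 in control cells (SD, n = 3 each).

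**Figure D3:**
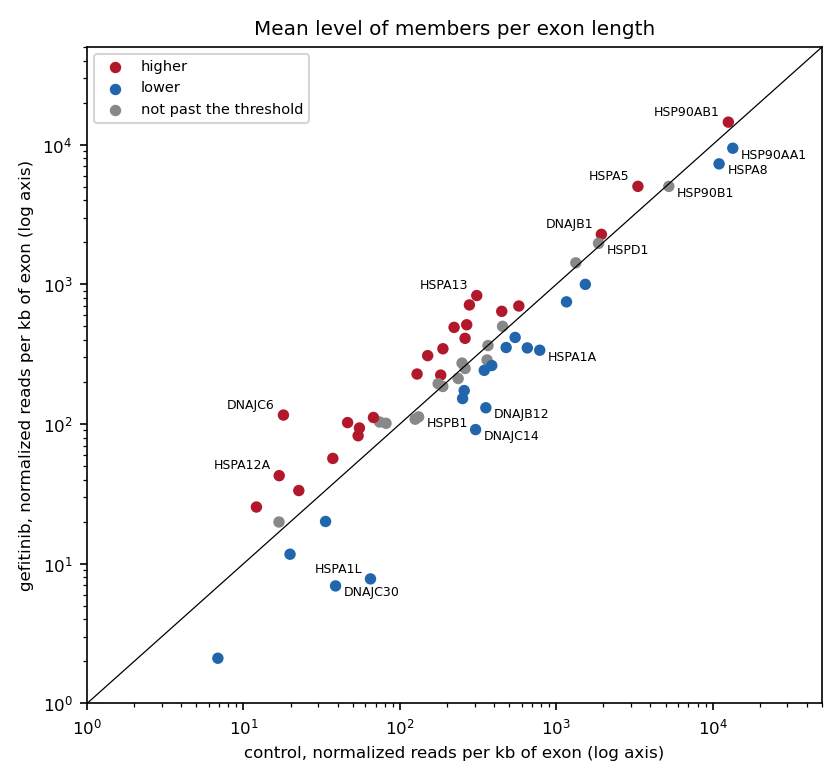
Mean normalized reads per kb of annotated exon in gefitinib cells (vertical, log axis) against control cells (horizontal, log axis) for the 58 genes with a mean value of at least 10; the line marks equal levels. HSP90AB1, HSP90AA1 and HSPA8 stand at the top right, HSPA13, DNAJC6 and HSPA12A above the line and HSPA1L, DNAJC30, DNAJB12 and DNAJC14 below it.

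In the HSP70 and HSP110 class, which binds unfolded stretches of client proteins, 8 of 14 genes were lower, 4 higher and 2 did not pass. The share lower was 57.1%, beside 22.8% of all genes, and the share higher 28.6%, beside 28.3%. HSPA8 (chromosome 11, 123057489-123063230, minus strand) folds new proteins and uncoats clathrin vesicles, and had 39316, 33882 and 32765 normalized reads in gefitinib libraries, against 58004, 53528 and 48293 in control libraries. HSPH1 (chromosome 13, 31134974-31162388, minus strand), an HSP110 exchange factor for HSP70, had 7079, 6224 and 5548 in gefitinib libraries and 10853, 9535 and 8864 in control libraries. For both, every gefitinib library was below every control library, with differences of -0.59 ± 0.10 (adjusted p = 0.00112, limma) and -0.64 ± 0.11 (adjusted p = 0.00104). HSPA4, also an HSP110-type exchange factor, fell to a similar degree (-0.61 ± 0.10, adjusted p = 0.000677). HSPA8 has processed pseudogenes, so the assignment of its reads is uncertain.

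The heat-inducible HSP70 genes HSPA1A and HSPA1B lie next to each other in the major histocompatibility region and encode nearly the same protein, so reads cannot be split between them with certainty. HSPA1A (chromosome 6, 31815464-31817946, plus strand) had 901, 819 and 795 normalized reads in gefitinib libraries and 1481, 2044 and 2313 in control libraries, and HSPA1B (chromosome 6, 31827735-31830255, plus strand) had 802, 964 and 886 in gefitinib libraries and 1363, 1775 and 1798 in control libraries. Both fell without overlap, by -1.19 ± 0.15 (adjusted p = 0.000177, limma) and -0.89 ± 0.13 (adjusted p = 0.000339). Their sum, which does not rest on the split, was 1722 ± 54.2 in gefitinib cells and 3591 ± 664 in control cells (SD, n = 3 each), so gefitinib cells held 47.9% of the control level. HSPA1L (chromosome 6, 31809619-31815065, minus strand), the neighbour on the other strand and known mainly from testis, was low, with 33.1, 9.94 and 16.4 in gefitinib libraries and 171, 172 and 153 in control libraries, and had the largest fall of the 66 genes (-3.15 ± 0.38, adjusted p = 0.000132, limma). HSPA6, which human cells switch on in severe stress, stayed at 2.65, 8.13 and 29.1 in gefitinib libraries and 6.35, 7.81 and 1.93 in control libraries, with overlap, and did not pass (adjusted p = 0.403).

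Some promoters of the family hold the letters of the heat shock element, the sequence that HSF1 binds. RefSeq promoters of the GRCh38.p14 build, 250 bases before to 50 after the start, were matched for 60 of the 68 genes. Only the first listed start of each gene was scanned. A match was counted for 2 neighbouring, inverted heat shock units, GAANNTTC or TTCNNGAA, on either strand; the 3-unit form adds a further inverted unit and contains both 2-unit forms. Stretches of HSPA1A, chr6:31815391-31815490, plus strand, and HSPA1B, chr6:31827587-31827686, plus strand, are shown because these 2 genes are the classic heat-inducible pair and fell together, and that of HSPA8, chr11:123062137-123062235, minus strand, because it holds the 3-unit form and is the most abundant HSP70. DNAJB6, chr7:157336829-157336929, plus strand, also holds the 3-unit form but rose. Capitals mark the heat shock element, 5′ to 3′ on the strand of the gene.
HSPA1A: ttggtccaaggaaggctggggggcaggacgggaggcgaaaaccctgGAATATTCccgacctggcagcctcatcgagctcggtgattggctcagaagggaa
HSPA1B: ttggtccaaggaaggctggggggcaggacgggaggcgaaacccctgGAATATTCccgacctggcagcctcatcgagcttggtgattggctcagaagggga
HSPA8: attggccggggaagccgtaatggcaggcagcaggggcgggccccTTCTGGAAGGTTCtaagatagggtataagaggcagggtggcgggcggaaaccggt
DNAJB6: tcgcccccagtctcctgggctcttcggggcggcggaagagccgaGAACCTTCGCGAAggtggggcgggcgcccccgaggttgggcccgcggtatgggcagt
The HSPA1A element starts at base -106 from the RefSeq start, the HSPA1B element at -105, the HSPA8 element shown at -55, with a further 3-unit copy at -230, and the DNAJB6 element at -131. The HSPA1A and HSPA1B stretches are equal at 97 of 100 bases. HSPA1L starts from the opposite strand, and its promoter window holds the same 8 bases, chr6:31815437-31815444, at -161 from its own start.

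The 2-unit form was present in 12 of the 60 promoters, 20%, beside 13.7% of all 27305 promoters. Of the 12 genes, 4 were lower, 4 higher and 4 did not pass. Cytosolic HSP90, HSP70 and HSP110 genes held it in 5 of 12 promoters (HSPA1A, HSPA1B, HSPA1L, HSPA6 and HSPA8), of which 4 genes were lower and none higher. HSPA1A and HSPA1L share the same element. In this group HSP90AA1, HSPA2, HSPA4 and HSPH1 were lower without a match, HSP90AB1 and HSPA12A were higher, and HSPA4L did not pass. Among all members, those that rose while holding the letters were DNAJB6, DNAJC15, HSPA9 and HSPB8. The 3-unit form was present in 4 of 60, DNAJA1, DNAJB6, HSPA6 and HSPA8, beside 0.487% of all promoters. A match describes letters in this window and is not evidence of binding. A gene without a match lacks it only at the start scanned, because other starts were not examined. The HSP90AA1 window, chr14:102139700-102139999, lies at the outer end of the annotated gene.

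The remaining HSP70 genes of the cytosol were mixed. HSPA12A (chromosome 10, 116671192-116850236, minus strand), an atypical and distant relative, had 483, 502 and 529.7 normalized reads in gefitinib libraries and 202, 223 and 176 in control libraries, and rose (1.34 ± 0.14, adjusted p = 4.57e-05, limma). HSPA14, which works with DNAJC2 at the ribosome, was lower (-0.43 ± 0.10, adjusted p = 0.00649), as was HSPA2, abundant in testis (-0.74 ± 0.19, adjusted p = 0.0107, and 0.0520 without gefitinib library 2). HSPA4L was at -0.21 ± 0.10 and did not pass (adjusted p = 0.127), though without control library 3 it was called lower (0.0407).

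In the ER, 6 of 10 members were higher. HSPA5 (chromosome 9, 125234853-125241330, minus strand), known as BiP or GRP78, is the HSP70 of the ER and holds the sensors of the unfolded protein response inactive. It had 20485, 19359.6 and 19105 normalized reads in gefitinib libraries, against 13612, 13083 and 12295 in control libraries, so that all gefitinib libraries were higher (0.60 ± 0.08, adjusted p = 0.000165, limma). The ratio of HSPA5 to HSPA8 reads within a library was 0.521, 0.571 and 0.583 in gefitinib libraries and 0.235, 0.244 and 0.255 in control libraries. HSPA13 (chromosome 21, 14371115-14383484, minus strand), a microsomal HSP70 without the substrate-binding part, rose more, to 3562, 3491 and 3405 in gefitinib libraries against 1413, 1285 and 1203 in control libraries (1.42 ± 0.08, adjusted p = 2.78e-06, limma). It was the largest rise in the HSP70 and HSP110 class.

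Of the 7 DNAJ genes placed in the ER, 4 were higher, 1 lower and 2 did not pass. DNAJB9 (chromosome 7, 108569568-108574850, plus strand), ERdj4, brings misfolded proteins to degradation and represses the sensor IRE1. It had 1275, 1423 and 1488 normalized reads in gefitinib libraries and 706, 631 and 552 in control libraries, without overlap (1.15 ± 0.12, adjusted p = 4.17e-05, limma). It overlaps THAP5 and PNPLA8 on the opposite strand. DNAJC3 (chromosome 13, 95677139-95794989, plus strand), p58IPK, inhibits the stress kinase PERK and had 4001, 3538 and 3211 in gefitinib libraries and 2724, 2455 and 2336 in control libraries (0.51 ± 0.10, adjusted p = 0.00226, limma). DNAJC10, a disulfide reductase, rose by 0.66 ± 0.08 (adjusted p = 0.000162) and DNAJB14, an ER membrane protein that recruits cytosolic HSC70, by 0.61 ± 0.11 (adjusted p = 0.00170). DNAJB11, ERdj3, at 0.15 ± 0.08 and DNAJC1, ERdj1, at 0.48 ± 0.18 did not pass (adjusted p = 0.173 and 0.0549). Without control library 1 both were called higher (0.0228 and 0.0376), and DNAJC1 also without gefitinib library 1 (0.0453). The lower gene was DNAJB12 (chromosome 10, 72332830-72355230, minus strand), the close relative of DNAJB14, with 905, 708 and 603 in gefitinib libraries and 1722, 2052 and 2234 in control libraries. It fell without overlap (-1.45 ± 0.16, adjusted p = 6.13e-05, limma).

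In the windows scanned, HSPA5 and HSP90B1 were the only members of the 60 with the ER stress element. It is CCAAT and CCACG with 9 bases between, on either strand. It stood in 0.0806% of all promoters. They are shown, from chr9:125241350-125241450, minus strand, and chr12:103930175-103930380, plus strand, because they share the element and differ in response: HSPA5 rose and HSP90B1, which has 2 copies, did not pass. Capitals mark the elements.
HSPA5: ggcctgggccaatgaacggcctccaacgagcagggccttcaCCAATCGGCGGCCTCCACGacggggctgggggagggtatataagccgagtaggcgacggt
HSP90B1: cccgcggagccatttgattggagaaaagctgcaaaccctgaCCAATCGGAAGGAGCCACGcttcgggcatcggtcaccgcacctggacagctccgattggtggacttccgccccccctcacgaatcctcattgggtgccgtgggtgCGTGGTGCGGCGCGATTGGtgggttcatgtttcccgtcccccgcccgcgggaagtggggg
The HSPA5 element starts at -66 from the RefSeq start, and the HSP90B1 elements at -194 and -89, the nearer of them on the other strand.

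**Figure D4:**
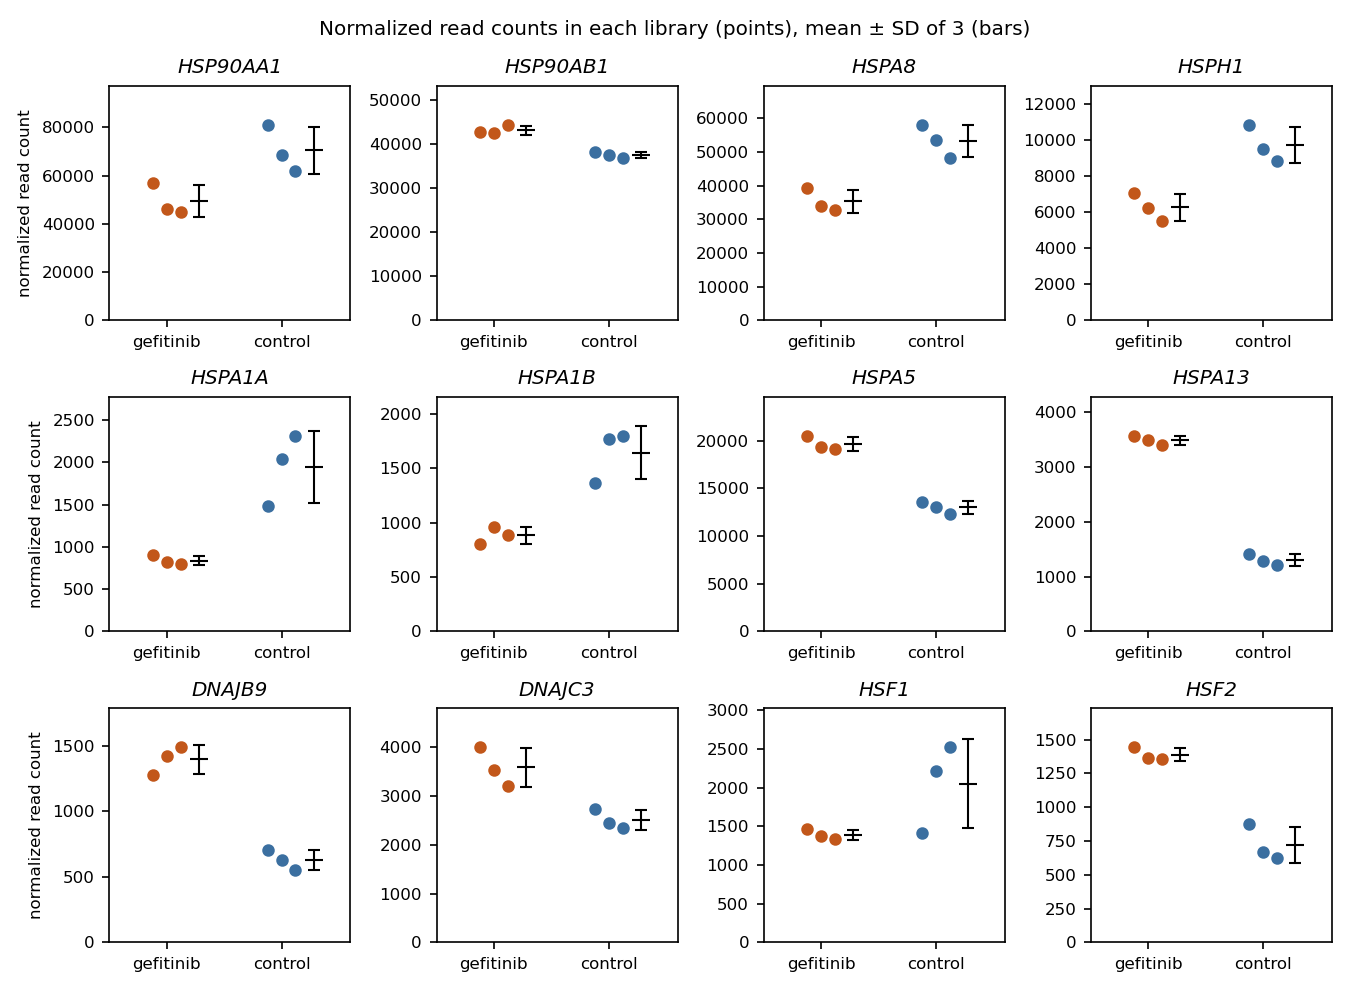
Normalized read counts (vertical axes from 0) of 12 genes in gefitinib libraries (orange, left) and control libraries (blue, right), with mean ± SD of 3. The groups do not overlap in 11 panels; in the HSF1 panel control library 1 lies at 1412, among the gefitinib libraries at 1336 to 1465.

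Mitochondrial members did not move together. HSPA9 (chromosome 5, 138553756-138575724, minus strand), mortalin, pulls proteins through the inner membrane. It had 5829, 5776 and 5721 normalized reads in gefitinib libraries and 4996, 4803 and 4469 in control libraries, without overlap (0.28 ± 0.07, adjusted p = 0.00979, limma), but with TMM scaling the difference was 0.22 with an adjusted p of 0.0597. The chaperonin HSP60 and its lid HSP10 are encoded head to head by HSPD1 and HSPE1. HSPD1 (chromosome 2, 197486581-197516737, minus strand) had 7938, 8073 and 9005 in gefitinib libraries and 8999, 7616 and 7097 in control libraries, which overlap (0.08 ± 0.10, adjusted p = 0.534). HSPE1 (chromosome 2, 197499994-197503457, plus strand) had 508, 482 and 447 in gefitinib libraries and 741, 663 and 651 in control libraries, and fell (-0.51 ± 0.11, adjusted p = 0.00328, limma). The HSPD1 to HSPE1 read ratio was 15.6, 16.8 and 20.2 in gefitinib libraries and 12.1, 11.5 and 10.9 in control libraries. The annotated genes overlap on opposite strands, HSPE1 also overlaps a readthrough gene with MOB4 and has many processed pseudogenes, so its count is uncertain.

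Among the other mitochondrial DNAJ genes, DNAJA3 (chromosome 16, 4425805-4456775, plus strand), which partners HSPA9, had 1562, 1585 and 1605 normalized reads in gefitinib libraries and 1096, 1384 and 1389 in control libraries. The rise was small (0.30 ± 0.11, adjusted p = 0.0374, limma), came to 0.19 without control library 1, and was lost in 10 of 16 alternative fits, TMM scaling among them (adjusted p = 0.0660). DNAJC15 of the import motor was higher (0.58 ± 0.18, adjusted p = 0.0202), a call lost without either of gefitinib libraries 2 and 3 or any control library (adjusted p 0.0595 to 0.131). DNAJC19, also of the import motor, was at 0.31 ± 0.12 (adjusted p = 0.0557) and DNAJC11, of the inner membrane organizing system, at -0.15 ± 0.09 (adjusted p = 0.178). Neither passed, but without control library 1 DNAJC19 was called higher (0.0358) and DNAJC11 lower (0.0202), and DNAJC19 was also called without gefitinib library 3 (0.0287). DNAJC30 (chromosome 7, 73680969-73683453, minus strand), tied to respiratory complex I, had 15.9, 19.9 and 15.9 in gefitinib libraries and 72.7, 109 and 107 in control libraries, and fell most in the DNAJ family (-2.40 ± 0.27, adjusted p = 8.89e-05, limma). It has few reads and overlaps BUD23 on the opposite strand.

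The small heat shock proteins, which hold unfolded proteins without ATP, were few and low. HSPB1 (chromosome 7, 76302544-76304295, plus strand), HSP27, had 161, 179.8 and 210.0 normalized reads in gefitinib libraries and 102, 205 and 339 in control libraries. The control values spread widely around the gefitinib values, and it did not pass (-0.07 ± 0.37, adjusted p = 0.887, limma). HSPB8 (chromosome 12, 119178642-119221131, plus strand), which works with BAG3 in selective autophagy, had 269.8, 249 and 285 in gefitinib libraries and 142, 178 and 153 in control libraries, without overlap (0.77 ± 0.16, adjusted p = 0.00279). HSPB11 (chromosome 1, 53916574-53945929, minus strand) has a small heat shock name but is IFT25, a part of the ciliary transport complex. It had 575, 554 and 555 in gefitinib libraries and 904, 863 and 735 in control libraries. These groups did not overlap either (-0.57 ± 0.11, adjusted p = 0.00197, limma). HSPB6 had 6 reads in the gefitinib libraries and 2 in the control libraries, a depth-corrected ratio of 2.52 (95% exact interval 0.450 to 25.5, counting error only).

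The DNAJA and DNAJB proteins of the cytosol and nucleus, which deliver clients to HSP70, included several clear rises. DNAJB1 (chromosome 19, 14514770-14529770, minus strand), HSP40, the main partner of inducible HSP70, had 8588, 8394 and 8136 normalized reads in gefitinib libraries and 6442, 7524 and 7427 in control libraries. It was slightly higher (0.23 ± 0.08, adjusted p = 0.0382, limma), with 0.17 and an adjusted p of 0.107 under TMM scaling, and the call was also lost without any single gefitinib library or control library 2 (adjusted p 0.0584 to 0.122). DNAJB1 is known to be induced in heat together with HSPA1A and HSPA1B. It overlaps TECR on the opposite strand.

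Larger differences were found for DNAJB4 (chromosome 1, 77979175-78017964, plus strand), a relative of DNAJB1, with 2662, 2676 and 2743 normalized reads in gefitinib libraries and 1135, 1059.8 and 963 in control libraries (1.36 ± 0.09, adjusted p = 3.63e-06, limma). DNAJB6 (chromosome 7, 157335381-157417439, plus strand), a strong suppressor of aggregation, had 4605, 4618 and 4652 in gefitinib libraries and 2374, 2221 and 2171 in control libraries (1.04 ± 0.07, adjusted p = 5.72e-06, limma). DNAJB2, a cochaperone that sorts clients to the proteasome, was also higher (0.84 ± 0.14, adjusted p = 0.000834). None of the 3 had overlapping groups. The annotated DNAJB4 gene overlaps GIPC2 on the same strand. DNAJA2 (chromosome 16, 46955362-46973788, minus strand) went the other way, with 2344, 2024 and 1964 in gefitinib libraries and 3009, 2689 and 2593 in control libraries (-0.39 ± 0.10, adjusted p = 0.00792, limma), a call lost without gefitinib library 2 (0.0614) or 3 (0.0621). DNAJA1, at 0.10 ± 0.10, did not pass (adjusted p = 0.431). DNAJB5 and DNAJB13, with means of at most 11.7, did not pass either.

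The 28 DNAJC genes share only the J domain and serve very different tasks. Of them 10 were higher, 5 lower and 13 did not pass. The share called, 53.6%, was near the 51.1% of all genes. The largest rise in the whole family was that of DNAJC6 (chromosome 1, 65248219-65415869, plus strand), auxilin, which with HSPA8 strips clathrin from vesicles and is best known from neurons. It had 824, 771 and 823 normalized reads in gefitinib libraries and 136, 115 and 125 in control libraries, so that the groups lay far apart (2.68 ± 0.13, adjusted p = 1.11e-06, limma). DNAJC24 (chromosome 11, 31369840-31431849, plus strand), an enzyme cofactor of diphthamide synthesis, had 723, 840.4 and 768 in gefitinib libraries and 387, 345 and 323 in control libraries (1.14 ± 0.12, adjusted p = 4.71e-05). DNAJC9 (chromosome 10, 73183362-73248862, minus strand), a histone chaperone that binds HSP70, had 1311, 1438 and 1354 in gefitinib libraries and 830.3, 773 and 632 in control libraries (0.88 ± 0.11, adjusted p = 0.000194, limma). It overlaps FAM149B1 on the opposite strand and MRPS16 on the same strand. DNAJC16 (chromosome 1, 15526813-15592379, plus strand) had 190.5, 230.4 and 233 in gefitinib libraries and 104, 120.5 and 85.9 in control libraries (1.07 ± 0.19, adjusted p = 0.00126). Gefitinib libraries were higher for all 4 without overlap.

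Lower in gefitinib cells was DNAJC14 (chromosome 12, 55820960-55830824, minus strand), a membrane protein that assists receptor export from the ER, with 480.1, 389 and 278 normalized reads in gefitinib libraries and 1297, 1259.5 and 1276 in control libraries (-1.77 ± 0.18, adjusted p = 4.05e-05, limma). It overlaps ORMDL2 on the opposite strand and the coding gene AC023055.1 on the same strand. DNAJC17 (chromosome 15, 40765155-40807478, minus strand), a nuclear protein with a part in splicing, had 79.4, 59.6 and 58.6 in gefitinib libraries and 92.4, 134 and 109 in control libraries (-0.75 ± 0.23, adjusted p = 0.0231). DNAJC28 (chromosome 21, 33485530-33491720, minus strand) had few reads, at 9.26, 3.61 and 2.81 in gefitinib libraries and 29.6, 8.92 and 12.5 in control libraries, with overlap (-1.50 ± 0.53, adjusted p = 0.0397, limma). The DNAJC17 call was lost without gefitinib library 2 or 3 or control library 2 or 3 (adjusted p 0.0597 to 0.0973), and the DNAJC28 call without gefitinib library 2 or 3 or control library 1 or 3 (0.0878 to 0.214). DNAJC2, which sits with HSPA14 at the ribosome exit tunnel, fell by 0.72 on the log2 scale (adjusted p = 0.000988), so both partners of this complex were lower.

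Smaller rises were called for DNAJC4 (0.73 ± 0.18, adjusted p = 0.00677, and 0.0568 without gefitinib library 2), for DNAJC27, which carries a small GTPase domain (0.56 ± 0.17, adjusted p = 0.0202, and lost without gefitinib library 1 or 2 or control library 2, with adjusted p of up to 0.0698), and for the weakly expressed DNAJC22 (1.51 ± 0.38, adjusted p = 0.00838, at means of 12.3 and 3.80 in gefitinib and control cells, and lost in DESeq2 with an adjusted p of 0.0598). Among those that did not pass were DNAJC5, the cysteine string protein of secretory vesicles (-0.30 ± 0.16, adjusted p = 0.164, limma), DNAJC7, which carries tetratricopeptide repeats (-0.02 ± 0.11), DNAJC8, a splicing factor (0.00 ± 0.12), DNAJC13 of endosomes (0.13 ± 0.07) and DNAJC21 of ribosome assembly (-0.06 ± 0.10). DNAJC5 was called lower by edgeR (-0.38, adjusted p = 0.0436), by DESeq2 (-0.39, adjusted p = 0.0302) and by limma without control library 1 (-0.51, adjusted p = 0.00392). DNAJC13 was called higher without that library (adjusted p = 0.0454). DNAJC12, DNAJC18 and DNAJC25 did not pass either. DNAJC5B had 0 reads in gefitinib libraries and 1 in control libraries. DNAJC5G had 1 read in gefitinib libraries and 3 in control libraries, a depth-corrected ratio of 0.279 (95% exact interval 0.00532 to 3.48).

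Other genes of the folding system were counted from lists made by textbook role, with earlier results of these data known. Among all genes, 28.3% were higher, 22.8% lower and 51.1% called in either direction. All tested genes of the ER, cochaperone, CCT and prefoldin, and mitochondrial lists had a mean of at least 10. Of all 15229 genes, 12097 did, and fitted alone 4044 of these were higher and 3389 lower. In the unfolded protein response and ER folding list, 14 of 24 genes were higher, 2 lower and 8 did not pass, with a median log2 difference of 0.40. HERPUD1, of ER-associated degradation, had 4672 ± 1154 normalized reads in gefitinib cells and 730.0 ± 63.0 in control cells (SD, n = 3 each) (2.65 ± 0.16, adjusted p = 3.23e-06, limma). DDIT3, the stress factor CHOP, had 852 ± 157 normalized reads in gefitinib cells and 249.8 ± 59.4 in control cells (SD, n = 3 each) (1.77 ± 0.19, adjusted p = 6.13e-05). Those that fell were EDEM1 (-0.64 ± 0.09), which removes mannose from misfolded glycoproteins, and ERO1A (-0.60 ± 0.12), the main ER oxidase. The disulfide isomerases PDIA4, PDIA6 and P4HB, and CANX, SDF2L1, XBP1, SEC61B and SEC61A1 did not pass.

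Of the cochaperones of HSP70 and HSP90, 6 of 30 were higher, 10 lower and 14 did not pass, with a median of -0.07. The share called, 53.3%, was near the 51.1% of all genes, a base that includes low genes. FKBP5, an HSP90-bound isomerase of steroid receptor complexes, was highest in log2 difference (1.65 ± 0.10, adjusted p = 2.48e-06, limma), with 1193 ± 9.67 normalized reads in gefitinib cells and 381 ± 22.3 in control cells (SD, n = 3 each). CDC37L1 followed (1.57 ± 0.18, adjusted p = 0.000106). The deepest fall was that of BAG2, an HSP70 exchange factor, with 287 ± 25.3 normalized reads in gefitinib cells and 1312 ± 126 in control cells (SD, n = 3 each) (-2.19 ± 0.12, adjusted p = 1.79e-06), before CHORDC1, an HSP90 partner (-0.99 ± 0.13, adjusted p = 0.000185).

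Genes that HSF1 induces outside the chaperone families were counted apart: 7 of 13 were higher, 2 lower and 4 did not pass, with a median of 0.37. RGS2, a regulator of G protein signalling, had 81.5 ± 5.74 normalized reads in gefitinib cells and 10.1 ± 1.29 in control cells (SD, n = 3 each) (2.89 ± 0.26, adjusted p = 2.45e-05, limma). CLU, the secreted chaperone clusterin, rose by 1.86 ± 0.15 (adjusted p = 1.45e-05). HMOX1, heme oxygenase, fell (-2.05 ± 0.19, adjusted p = 2.94e-05), as did SERPINH1, the collagen chaperone (-0.43 ± 0.16, adjusted p = 0.0456), whose groups overlap. These genes have other inducers besides HSF1.

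Of the cytosolic chaperonin CCT and prefoldin genes, 3 of 15 were higher, 5 lower and 7 did not pass, with a median of -0.16. Here too the share called, 53.3%, was near the 51.1% of all genes, low genes included. CCT7 (1.07 ± 0.14) and PFDN5 (0.77 ± 0.09) had the largest rises and PDCL3 (-1.09 ± 0.20) and CCT5 (-0.67 ± 0.08) the largest falls. Of the mitochondrial folding and proteolysis genes, 1 of 13 was higher, TIMM44 (0.73 ± 0.15), 4 were lower, with HTRA2 (-1.31 ± 0.18) and LONP1 (-0.98 ± 0.21) first, and 8 did not pass, with a median of -0.01. Of 8 relatives of the members under other names, 2 were higher and 1 lower. HYOU1, the HSP110 of the ER, was among the higher (0.74 ± 0.09, adjusted p = 0.000168, limma), and HSF4 was the lower gene (-0.76 ± 0.23, adjusted p = 0.0207). The other 5 did not pass, and the median was 0.07.

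**Figure D5:**
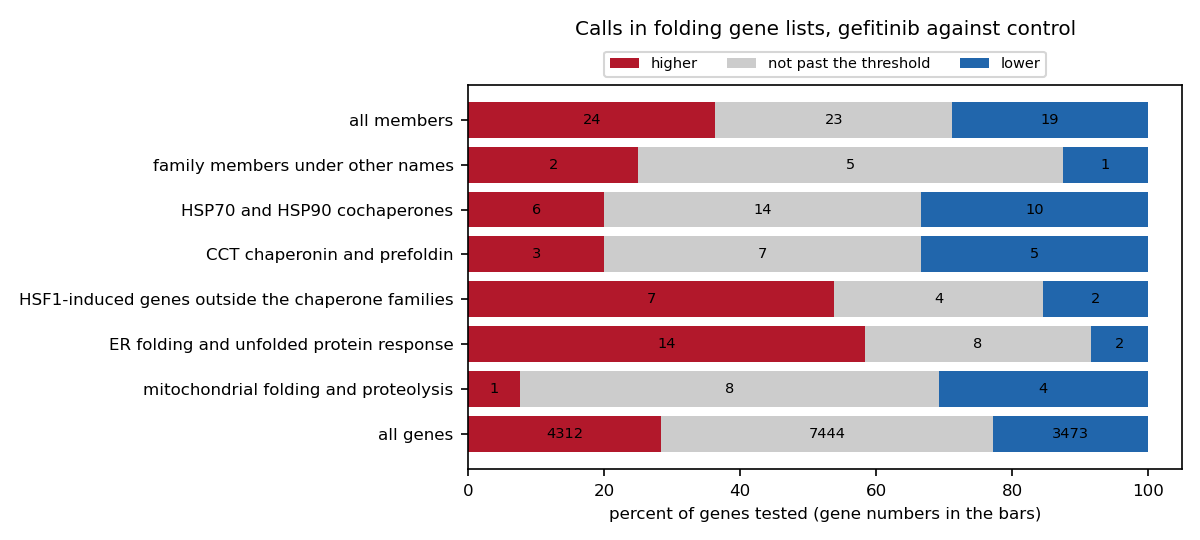
Percent of tested genes called higher (red), not past the threshold (grey) or lower (blue) among the 66 members, 6 lists of other folding genes and all 15229 genes, with the numbers of genes in the bars. ER folding and unfolded protein response genes show 14 higher and 2 lower, cochaperones 6 higher and 10 lower.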

How the data were processed

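Total RNA of PC9ER cells was sequenced, 3 libraries per group, grouped by title. STAR, HTSeq and GRCh38 are named, without versions, in the submitters' processing notes. The deposited coding table holds a signal, made by the authors from reads per gene with every library brought to a total of 18085800. Dividing by what 1 read is worth gave whole numbers for 100% of the values, within 0.01 read, and these reads served for depths and as counts for edgeR. A further table has 6 count columns whose names match no label, and these were not used; its gene IDs and positions served as a lookup, with GENCODE 29 for coordinates, exon lengths and overlaps.

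limma-trend 3.58.1 (R 4.3.3) was fitted to log2(value + 1) of all 15229 genes above 0 in any library, 2-sided, with Benjamini-Hochberg adjustment and a threshold of 0.05. The planned design assumed scaled counts, as found. Alternatives were pseudocounts of 0.5 and 5, a minimum mean of 10, no filter, TMM or DESeq2 scaling, edgeR 4.0.16 and DESeq2 1.42.0 on the recovered counts, a replicate block, a test against a 1.2-fold change and leaving out each library; wider cytosolic and ER groupings were added after seeing the data. edgeR called 3707 genes higher and 3752 lower, and of 58 members tested 20 higher and 19 lower. The fits were tested on simulated data.

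The members and gene lists (relatives under other names, cochaperones, CCT and prefoldin, HSF1-induced genes, ER folding, mitochondrial folding, and epithelial, lung lineage, fibroblast, blood and endothelial markers) were chosen with earlier results of these data known. Of 106 list genes, 104 were in the table. Genes described per library were 17 well-known members plus the called members with the 4 largest absolute differences of each class (8 for DNAJC) at a mean of at least 10; list genes were the 2 largest rises and falls past the threshold, except 1 gene that is not reported here. A few others were named after their values were seen. Replicate libraries differed beyond sampling noise and none was counted as a duplicate. Control library 1 stood apart from its group on the second principal component, which held 9.59% of the variance. It lay at 38.1 there, and control libraries 2 and 3 at -12.6 and -28.8. Gefitinib library 1 lay at 23.3, and gefitinib libraries 2 and 3 at -8.86 and -11.1. After the group mean of each gene was subtracted, same-numbered libraries correlated at 0.0444 to 0.127 across genes with a mean of at least 10. Differently numbered libraries correlated at -0.128 to 0.0862, and the numbers were not taken as pairs. The median of all genes was 0.10 in log2 difference, and 0.05 with TMM scaling. Of the members, 25 overlap another annotated coding gene, 21 of them on the opposite strand. Some overlap a coding gene on the same strand, DNAJC4 with NUDT22 among them. Intervals and limits cover counting error only.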

Additional observations from a re-analysis of the deposited data

How the results depend on the processing

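Of the 43 called members, 27 kept call and direction in all 16 alternative fits that gave a value and 16 lost the call in at least 1; no sign of a called value was reversed. Another 7 members became called in some fit, and 16 were called in none. Leaving out a library gave 18 to 27 members higher and 13 to 20 lower, and 3233 to 4439 genes higher and 2640 to 3857 lower. Against a 1.2-fold change, 11 members were lower, as were 5 cochaperones, 3 CCT and prefoldin genes, 1 HSF1-induced gene and 0 relatives under other names, and 9 ER genes were higher. With a minimum mean of 10, TMM scaling, DESeq2 size factors, edgeR or DESeq2, 2 relatives under other names were lower. With a pseudocount of 5 or no filter, 1 HSF1-induced gene was lower. Mitochondrial list genes higher were 2 with a pseudocount of 5 or a minimum mean of 10, and 3 without a filter or with the replicate block. Without 1 library, the counts of lower genes were 0 to 2 relatives, 1 to 2 HSF1-induced genes, 1 to 6 mitochondrial genes, 6 to 12 cochaperones, 3 to 5 CCT and prefoldin genes and 1 to 3 ER genes, and 0 to 4 mitochondrial genes were higher. With the replicate number as a block, 4438 genes were higher and 3552 lower, and 24 members higher and 19 lower. After subtraction of the group means, control library 2 correlated best with gefitinib library 3, not with its own number. Control libraries 1 and 3 correlated best with their own numbers. The cause of these shifts was not tested. Depth limits HSPB6, DNAJC5B, DNAJC5G, DNAJC22 and DNAJC28, each with few reads.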
